A study of Homo sapiens with 6 samples.

Results

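The unfolded protein response and the integrated stress response were examined as 48 named genes in RNA sequencing of U87-MG, an established human glioma cell line. The genes were taken by symbol from the 61806 genes of the deposited table, and all 48 were found. They comprise 3 sensors of the endoplasmic reticulum (ER), 3 other kinases of the translation factor eIF2α, 10 transcription factors, 2 eIF2α phosphatase subunits, 6 further targets of the transcription factor ATF4, 11 ER chaperones and co-factors, 6 genes of oxidative folding and 7 of ER-associated degradation. The study compared 3 libraries of the negative control (NC, genotype label wildtype) with 3 libraries labelled GRIK1 siRNA (genotype label knockdown), GRIK1 being a kainate receptor subunit, to look for genes downstream of GRIK1 in glioblastoma. Cells of both groups are the same line, and no time after transfection was given. Titles name siRNA while the design text names shRNA, and the labels do not say whether the numbers 1 to 3 are replicates or 3 siRNA sequences. The study's methods list a sequence under each of these numbers, and its results say that the first was kept for later experiments, without saying which the sequenced cells received. Nothing says that the libraries came from separate cultures, so p-values measure the spread between these libraries, which may be technical.

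In the ER, secreted and membrane proteins fold with the help of chaperones and disulfide exchange enzymes. When unfolded proteins accumulate, the kinase IRE1 (gene ERN1) splices the mRNA of XBP1, the membrane protein ATF6 is cleaved to release a transcription factor, and the kinase PERK (gene EIF2AK3) phosphorylates eIF2α. Phosphorylated eIF2α, which other kinases also make under amino acid shortage, viral RNA or haem shortage, lowers translation in general and favours translation of ATF4, whose targets include DDIT3, ASNS and TRIB3. Splicing of XBP1, cleavage of ATF6 and phosphorylation of eIF2α are not read by counts per gene, so the values below are mRNA levels only.

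Total counts per library lay between 11099909 and 14006968. GRIK1 itself had 18, 9 and 8 counts in NC against 15, 20 and 20 in the libraries that carry the siRNA label, called siRNA-labelled below. Its counts were thus not lower there, but GRIK1 was under the filter on low values described below. Without a filter its log2 fold change was 0.44 ± 0.43 (edgeR, adjusted p = 0.62). So few counts cannot show whether a knockdown took place, and the study reports an efficient one in U87-MG cells. NC library 3 stood apart: log expression in it correlated with the other 5 libraries at 0.952 to 0.968, against 0.980 to 0.992 among those 5, and ribosomal protein genes took 9.37% of its counts against 4.79% to 5.50%. What made it differ was not tested, and results are given with and without it. Of the line's markers, VIM had 59785 to 68733 counts and CD44 7023 to 7961, while NES had only 16 to 51, and TNC had 3346 in NC library 3 against 15465 to 19462 elsewhere. Defining markers of other cells were at or near 0: CD3E had 0 counts in every library, PTPRC 0 to 5, PECAM1 0 to 5, CDH5 0 to 2 and HBB 0 to 1, with EPCAM at 27 to 64 and ALB at 1 to 10. Of 5 glial lineage markers, AQP4 had 0 counts in every library, S100B 0 to 1 and OLIG2 15 to 30. GFAP had 13, 11 and 8 counts in NC and 39, 36 and 38 in the siRNA-labelled libraries, without overlap. It was under the filter, and without a filter its log2 fold change was 1.61 ± 0.36 (edgeR, adjusted p = 0.0109). SOX10 had 13, 8 and 4 counts in NC and 1, 35 and 33 in the siRNA-labelled libraries, so that siRNA-labelled library 1 was the lowest of the 6. The part of these markers in the results below was not tested.

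Levels of the stress response genes covered 4 orders of magnitude on the FPKM scale (read density per length of exon and per library total), which allows genes to be set beside each other. The lectin chaperone CALR was highest, with a mean of 1817 FPKM over the 6 libraries, followed by the Hsp70 chaperone HSPA5 (BiP) at 926, the Hsp90 chaperone HSP90B1 (GRP94) at 548 and the disulfide isomerase PDIA4 at 477. The kinase sensors were among the lowest, with means of 1.59 FPKM for EIF2AK3 and 2.69 for ERN1. Their deposited exonic sizes, 20691 and 19153 bases, are long, and FPKM divides by that size. DERL3, a degradation factor of secretory tissues, was lowest at 0.26, 0.19 and 0.15 FPKM in NC and 0.15, 0.13 and 0.04 in the siRNA-labelled libraries. It had 11, 8 and 8 counts against 7, 6 and 2, was under the filter on low values (mean FPKM of at least 0.5) and was not tested. SMARCB1 overlaps DERL3 on the opposite strand at a mean of 52.9 CPM (counts relative to the TMM-scaled library total, not divided by length), and the strand setting of the counting is not given.

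**Figure D1:**
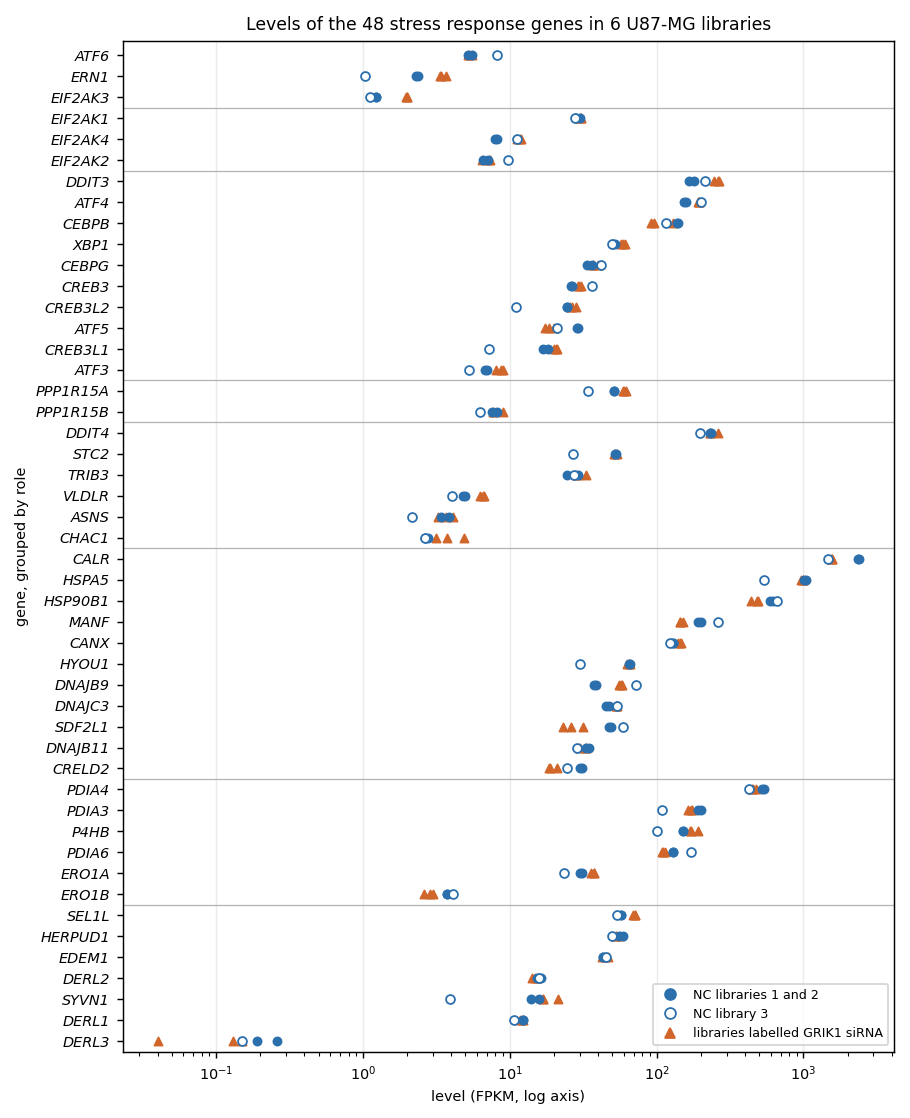
FPKM (log axis) of the 48 genes in each of the 6 libraries, in rows grouped by role with lines between the roles. Filled circles are NC libraries 1 and 2, open circles NC library 3 and triangles the libraries labelled GRIK1 siRNA. CALR lies at the top of the range and DERL3 at the bottom, and the open circle often lies away from the filled ones.

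Of the 47 tested genes, 3 differed between the groups in the test on all 6 libraries, against 3.09% of the 15870 genes tested (edgeR's quasi-likelihood test, adjusted p under 0.05). EIF2AK3 rose, as did 1.61% of all genes, and SDF2L1 and CRELD2 fell, as did 1.48%. SDF2L1 alone also passed an absolute log2 fold change of 1, as did 1.41% of all genes. The median log2 fold change (siRNA-labelled minus NC) was 0.07 over the 47 and -0.02 over all genes. Without NC library 3 the spread between libraries was much smaller (common dispersion 0.00298 against 0.0391), and with 2 NC libraries left 28 of the 47 passed, 17 higher and 11 lower, where 35.2% of all genes passed, 16.9% higher and 18.3% lower. The median was then 0.03 over the 47 and 0.01 over all genes. Leaving out any other single library, NC 1, NC 2 or any siRNA-labelled one, left 0 of the 47 called, with 9 to 12 at an unadjusted p under 0.05 in edgeR. In each of these fits 0 of all 15870 genes were called as well, with 2238 to 4434 at an unadjusted p under 0.05. DESeq2 on the 6 libraries called 9 of the 47, against 10.6% of all genes, with EIF2AK3, ERN1 and VLDLR higher (3 genes) and SDF2L1, CRELD2, ATF5, ERO1B, MANF and HSP90B1 lower (6 genes). All comparisons are of bulk RNA, in which fewer cells of a kind and less RNA per cell cannot be told apart.

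**Figure D2:**
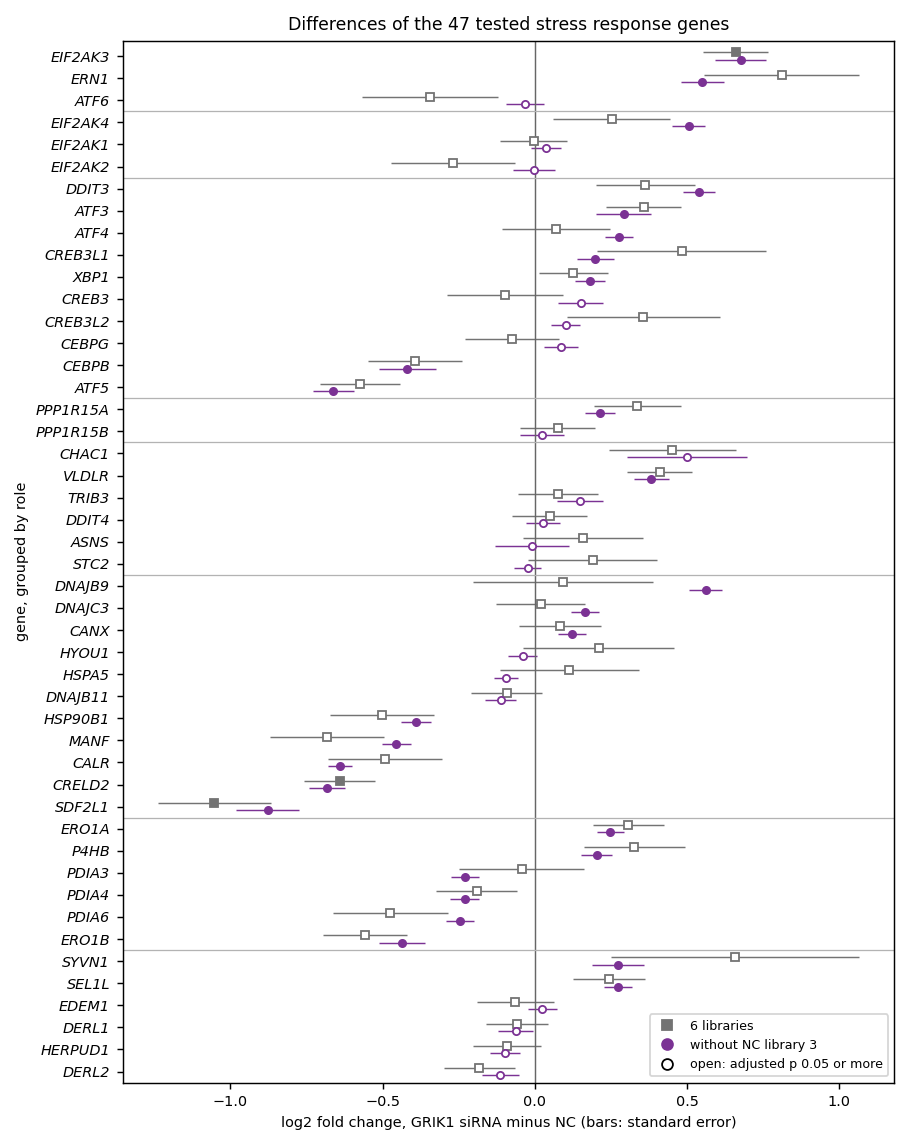
Log2 fold change (siRNA-labelled minus NC) with its standard error for the 47 tested genes, in rows grouped by role. Squares are the fit on 6 libraries and circles the fit without NC library 3, filled where the adjusted p was under 0.05: 3 squares and 28 circles are filled. Circles range from -0.88 (SDF2L1) to 0.68 (EIF2AK3), with shorter bars than the squares.

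Among the sensors, EIF2AK3 was the one called on 6 libraries. On the scale of CPM normalized to the effective library size, which is used for all levels from here on, it stood at 24.9, 25.3 and 25.9 in NC and 39.4, 40.5 and 40.3 in the siRNA-labelled libraries. The 3 NC libraries, NC 3 included, lay within 1 CPM of each other and the groups did not overlap. Its log2 fold change was 0.66 ± 0.11 (adjusted p = 0.0338) on 6 libraries, a fold of 1.58, and 0.68 ± 0.08 (adjusted p = 8.76e-06) without NC library 3. With any other library left out, the log2 fold change stayed between 0.65 and 0.67 and the adjusted p lay between 0.0767 and 0.223. The divergent transcript EIF2AK3-DT, which overlaps it on the opposite strand, had 10.1% of its level.

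ERN1, the gene of IRE1, had 45.0, 43.8 and 22.4 in NC and 68.3, 62.4 and 64.1 in the siRNA-labelled libraries. All siRNA-labelled values lay above all NC values, and NC library 3 was far below the other 2. Its log2 fold change was 0.81 ± 0.25 (adjusted p = 0.116) on 6 libraries and 0.55 ± 0.07 (adjusted p = 1.07e-05) without NC library 3, so of these fits it passed in the latter. It also passed on 6 libraries with DESeq2 (adjusted p = 0.0358) and with edgeR without a filter (adjusted p = 0.0273). ATF6, the third sensor, had 73.4, 78.9 and 131 in NC and 77.2, 73.6 and 72.5 in the siRNA-labelled libraries, with NC library 3 alone standing high. It passed in neither fit, with -0.35 ± 0.22 (adjusted p = 0.359) and -0.03 ± 0.06 (adjusted p = 0.743).

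**Figure D3:**
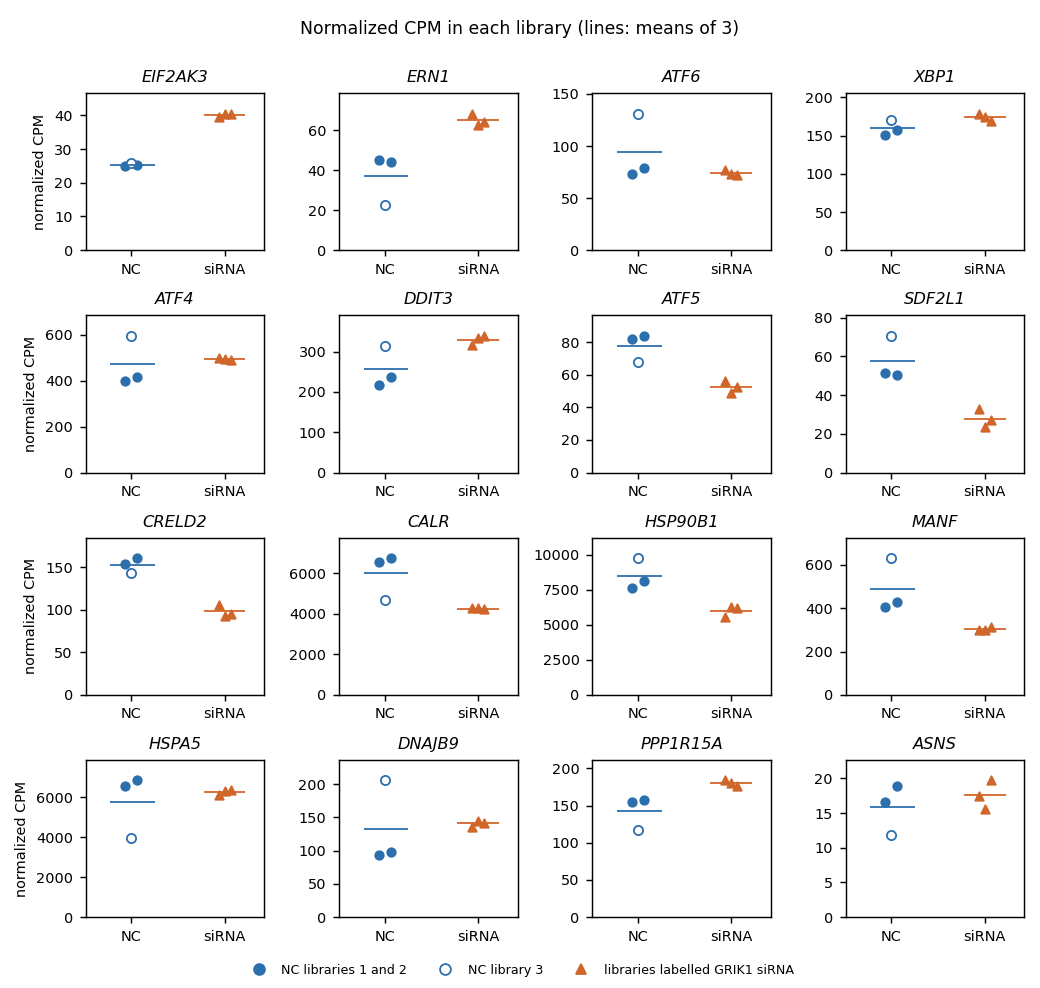
Normalized CPM of 16 stress response genes in each library, with linear axes that start at 0. Circles are NC (open for NC library 3), triangles are siRNA-labelled, and lines are means of 3 libraries. EIF2AK3 shows 2 tight and separate groups, while in ATF4, DNAJB9 and HSPA5 the open circle lies outside the other 5 points.

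The sequence before the start of each gene called on 6 libraries is shown because such stretches can hold elements known to bind XBP1, ATF6 or their partners. The 250 bases upstream of the RefSeq start (GRCh38.p14) of EIF2AK3 are chr2:88627465-88627714 on the minus strand, of SDF2L1 chr22:21642052-21642301 on the plus strand and of CRELD2 chr22:49918384-49918633 on the plus strand, each inside or next to the deposited gene model. The deposited models are ENSG00000172071 (EIF2AK3, chr2:88556741-88691518), ENSG00000128228 (SDF2L1, chr22:21642302-21644299) and ENSG00000184164 (CRELD2, chr22:49918167-49927540). Capitals mark the letters of an ER stress element, searched on both strands.
EIF2AK3: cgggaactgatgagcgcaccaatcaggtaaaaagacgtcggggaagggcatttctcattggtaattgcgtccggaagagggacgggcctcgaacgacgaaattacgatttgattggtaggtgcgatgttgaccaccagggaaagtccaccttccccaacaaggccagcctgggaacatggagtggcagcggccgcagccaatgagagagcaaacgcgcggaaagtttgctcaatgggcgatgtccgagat
SDF2L1: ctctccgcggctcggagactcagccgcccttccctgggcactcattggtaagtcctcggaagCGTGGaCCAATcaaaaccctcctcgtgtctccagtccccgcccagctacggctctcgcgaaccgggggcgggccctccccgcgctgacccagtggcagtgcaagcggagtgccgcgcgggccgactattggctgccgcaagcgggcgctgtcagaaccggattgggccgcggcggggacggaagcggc
CRELD2: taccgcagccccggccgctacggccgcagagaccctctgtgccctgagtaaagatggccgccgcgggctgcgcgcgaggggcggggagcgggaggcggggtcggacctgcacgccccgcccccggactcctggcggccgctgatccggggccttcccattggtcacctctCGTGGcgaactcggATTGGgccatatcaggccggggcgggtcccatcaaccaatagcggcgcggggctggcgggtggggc
SDF2L1 held ERSE-II (ATTGG and CCACG with 1 base between), read on the minus strand, 188 to 178 bases before its start, and CRELD2 held ERSE (CCAAT and CCACG with 9 bases between), also on the minus strand, 80 to 62 bases before its start. EIF2AK3 held neither in this window, which says only that those letters are not in it.

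The other eIF2α kinases gave 0 of 3 calls on 6 libraries and 1 without NC library 3, against 3.09% and 35.2% of all genes. EIF2AK4 (GCN2), which senses uncharged tRNA, had 97.4, 94.5 and 151 in NC and 139, 132 and 137 in the siRNA-labelled libraries. NC library 3 was the highest of all 6, and the other 2 NC libraries lay below every siRNA-labelled one. The difference on the log2 scale was 0.25 ± 0.19 (adjusted p = 0.431) on 6 libraries and 0.51 ± 0.05 (adjusted p = 1.34e-06) without NC library 3. EIF2AK2 (PKR), which binds double-stranded RNA, and EIF2AK1 (HRI), the haem-regulated kinase, passed in neither fit, at -0.27 ± 0.20 and -0.0037 ± 0.11 on 6 libraries and -0.0035 ± 0.07 and 0.04 ± 0.05 without NC library 3. GPATCH11 overlaps EIF2AK2 and AIMP2 overlaps EIF2AK1 on the opposite strand, at 30.6% and 18.0% of their levels.

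Transcription factors of the response gave 0 of 10 calls on 6 libraries and 7 of 10 without NC library 3, 5 higher and 2 lower, against 3.09% and 35.2% of all genes. ATF4, the main factor downstream of eIF2α phosphorylation, had 399, 417 and 595 in NC and 497, 492 and 491 in the siRNA-labelled libraries. NC library 3 was the highest of the 6, the siRNA-labelled libraries lay close together, and NC 1 and NC 2 were lowest. The fitted log2 fold change was 0.07 ± 0.18 (adjusted p = 0.823) on 6 libraries and 0.28 ± 0.05 (adjusted p = 0.000173) without NC library 3.

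DDIT3 (CHOP), a pro-apoptotic factor induced by ATF4, had 217, 237 and 314 in NC and 316, 333 and 339 in the siRNA-labelled libraries. Here NC library 3 lay just under the lowest siRNA-labelled value, so the groups were apart by a narrow margin. The log2 fold change was 0.36 ± 0.16 (adjusted p = 0.213) on 6 libraries and 0.54 ± 0.05 (adjusted p = 4.16e-07) without NC library 3. MARS1 and MBD6 overlap DDIT3 on the opposite strand at 47.4% and 39.6% of its level, and without strand their reads cannot be told apart where they overlap. ATF3, another ATF4 target, had 27.1, 28.5 and 24.0 in NC and 35.5, 34.3 and 32.1 in the siRNA-labelled libraries, with no overlap and NC library 3 lowest. It gave 0.36 ± 0.12 (adjusted p = 0.138) and, without NC library 3, 0.29 ± 0.09 (adjusted p = 0.0178).

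XBP1, the factor made active by IRE1, had 150.5, 157 and 171 in NC and 179, 174 and 169 in the siRNA-labelled libraries. The NC range reached into the siRNA-labelled range through NC library 3. On the log2 scale the difference was 0.13 ± 0.11 (adjusted p = 0.5) on 6 libraries and 0.18 ± 0.05 (adjusted p = 0.00846) without NC library 3. The ER-anchored factor CREB3L1, which governs collagen secretion genes, had 72.9, 68.2 and 32.7 in NC and 81.3, 78.6 and 82.5 in the siRNA-labelled libraries, with NC library 3 far below every other library. It gave 0.48 ± 0.28 (adjusted p = 0.307) and 0.20 ± 0.06 (adjusted p = 0.0177).

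The 2 factors that were lower without NC library 3 were ATF5 and CEBPB. ATF5, whose translation is controlled like that of ATF4, had 81.9, 83.9 and 68.0 in NC and 56.0, 48.7 and 52.2 in the siRNA-labelled libraries. Every siRNA-labelled value lay below every NC value. The log2 fold change was -0.57 ± 0.13 (adjusted p = 0.0622) on 6 libraries, close to the threshold, and -0.66 ± 0.07 (adjusted p = 9.39e-07) without NC library 3. NUP62 overlaps ATF5 on the opposite strand at 96.6% of its level. CEBPB, a leucine zipper partner of ATF4 and CHOP, had 252, 255 and 240.3 in NC and 230.4, 173 and 165 in the siRNA-labelled libraries. The groups did not overlap on the CPM scale (they did in FPKM), and library 1 of the siRNA-labelled group lay nearer to NC than to the other 2 of its group. Its values were -0.39 ± 0.15 (adjusted p = 0.172) and, without NC library 3, -0.42 ± 0.09 (adjusted p = 0.00183). CEBPG, CREB3 and CREB3L2 passed in neither fit, with log2 fold changes of -0.08, -0.10 and 0.36 on 6 libraries and 0.09, 0.15 and 0.10 without NC library 3, and GBA2 overlaps CREB3 at 138% of its level.

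PPP1R15A (GADD34), the stress-induced subunit that brings phosphatase to eIF2α, had 154, 157 and 117 in NC and 184, 180.2 and 177 in the siRNA-labelled libraries. The groups did not overlap, and NC library 3 was the lowest. The test gave 0.34 ± 0.14 (adjusted p = 0.196) on 6 libraries and 0.21 ± 0.05 (adjusted p = 0.002) without NC library 3. The constitutive subunit PPP1R15B passed in neither fit, at 0.08 ± 0.12 and 0.02 ± 0.07.

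Among 6 further targets of ATF4, 0 passed on 6 libraries and 1, VLDLR, without NC library 3, against 3.09% and 35.2% of all genes. VLDLR, a lipoprotein receptor, had 81.4, 79.4 and 75.6 in NC and 101, 105 and 108 in the siRNA-labelled libraries. The groups did not overlap and NC library 3 lay near the other NC libraries. The fitted log2 fold change was 0.41 ± 0.11 (adjusted p = 0.0783) on 6 libraries and 0.38 ± 0.06 (adjusted p = 5.15e-05) without NC library 3. ASNS, asparagine synthetase and a widely used readout of ATF4, had 16.6, 18.9 and 11.9 in NC and 17.5, 15.6 and 19.7 in the siRNA-labelled libraries. The 2 groups overlapped, and the sign of the difference turned from 0.16 ± 0.20 (adjusted p = 0.639) to -0.01 ± 0.12 (adjusted p = 0.963) without NC library 3. CHAC1, which degrades glutathione, had 5.61, 5.48 and 6.11 in NC and 9.74, 6.25 and 7.56 in the siRNA-labelled libraries, with no overlap but a wide spread at this low level. It gave 0.45 ± 0.21 (adjusted p = 0.221) and 0.50 ± 0.20 (adjusted p = 0.0578). TRIB3, a pseudokinase that restrains ATF4, DDIT4, an inhibitor of mTORC1 signalling, and the secreted glycoprotein STC2 passed in neither fit, with log2 fold changes of 0.08, 0.05 and 0.19 on 6 libraries and 0.15, 0.03 and -0.02 without NC library 3.

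The ER chaperones and co-factors held 2 of the 3 calls on 6 libraries, where 3.09% of all genes were called. SDF2L1, a co-factor of BiP and its DNAJ partners, had 51.6, 50.6 and 70.7 in NC and 32.7, 23.7 and 27.0 in the siRNA-labelled libraries. All siRNA-labelled values lay below all NC values, and NC library 3 was the highest. Its log2 fold change was -1.05 ± 0.19 (adjusted p = 0.0385) on 6 libraries, a fold of 0.482, and -0.88 ± 0.10 (adjusted p = 4.63e-06) without NC library 3, a fold of 0.544. With any other library left out it lay between -1.18 and -0.95, with an adjusted p from 0.0698 to 0.227.

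CRELD2, a secreted ER stress protein with disulfide isomerase activity, had 154, 160.5 and 143 in NC and 106, 93.0 and 94.7 in the siRNA-labelled libraries. The groups did not overlap and NC library 3 lay close to the other NC libraries. The log2 fold change was -0.64 ± 0.12 (adjusted p = 0.0387) on 6 libraries, a fold of 0.641, and -0.68 ± 0.06 (adjusted p = 1.32e-07) without NC library 3. With any other library left out it lay between -0.70 and -0.60, with an adjusted p from 0.0816 to 0.240. ALG12, a mannosyltransferase gene that overlaps CRELD2 on the opposite strand at 10.5% of its level, differed in the same direction, at -0.73 ± 0.13 (adjusted p = 0.0392) on 6 libraries, and reads of the pair cannot be told apart where they overlap.

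MANF, a secreted ER stress factor that binds BiP, had 408, 428 and 632 in NC and 299, 301 and 315 in the siRNA-labelled libraries. NC library 3 was the highest and every siRNA-labelled value was below the NC range. The log2 fold change was -0.68 ± 0.19 (adjusted p = 0.0908) on 6 libraries and -0.45 ± 0.05 (adjusted p = 1.05e-06) without NC library 3. HSP90B1 had 7639, 8137 and 9776 in NC and 5593, 6259.7 and 6179.8 in the siRNA-labelled libraries, again without overlap and with NC library 3 highest. Its values were -0.50 ± 0.17 (adjusted p = 0.134) and -0.39 ± 0.05 (adjusted p = 8.06e-06). CALR had 6521, 6735 and 4675 in NC and 4267, 4261 and 4209 in the siRNA-labelled libraries. Here NC library 3 lay near the siRNA-labelled values, which lay close together, and was still above all of them, while on the FPKM scale, which has no TMM scaling (factor 0.891 for that library), it lay below them at 1481 against 1535 to 1565. The test gave -0.49 ± 0.19 (adjusted p = 0.164) on 6 libraries and -0.64 ± 0.04 (adjusted p = 2.32e-09) without NC library 3.

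HSPA5, the chaperone that holds the sensors inactive and the classic marker of ER stress, had 6548, 6849.9 and 3979 in NC and 6118, 6309 and 6369 in the siRNA-labelled libraries. NC library 3 was the lowest by far, and the siRNA-labelled values lay under the other 2 NC libraries. The difference was 0.11 ± 0.23 (adjusted p = 0.778) on 6 libraries and -0.09 ± 0.04 (adjusted p = 0.081) without NC library 3, of opposite sign, and it passed in neither fit. Together HSP90B1, HSPA5 and CALR took 2.09%, 2.17% and 1.64% of NC counts and 1.64%, 1.73% and 1.71% of siRNA-labelled counts. On this measure, which is not normalized, NC library 3 was the lowest of the 6, just under the siRNA-labelled range.

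The chaperones that were higher without NC library 3 were DNAJB9, DNAJC3 and CANX. DNAJB9 (ERdj4), a co-chaperone of BiP and target of XBP1, had 93.7, 97.9 and 206 in NC and 136, 145 and 142 in the siRNA-labelled libraries. NC library 3 was highest by far, and NC 1 and NC 2 lay below all siRNA-labelled values. The log2 fold change was 0.09 ± 0.30 (adjusted p = 0.864) on 6 libraries and 0.56 ± 0.05 (adjusted p = 4.45e-07) without NC library 3. DNAJC3 (p58IPK), a co-chaperone that also inhibits eIF2α kinases, had 251, 267 and 340.0 in NC and 291, 287 and 292 in the siRNA-labelled libraries, with NC library 3 again highest and NC 1 and NC 2 lowest. It gave 0.02 ± 0.15 (adjusted p = 0.943) and 0.16 ± 0.05 (adjusted p = 0.00971). The membrane lectin chaperone CANX had 1767, 1783 and 1912 in NC and 1871, 1972 and 1939.7 in the siRNA-labelled libraries, which overlapped, and gave 0.08 ± 0.13 (adjusted p = 0.719) and 0.12 ± 0.05 (adjusted p = 0.0461). HYOU1 (GRP170), a nucleotide exchange factor of BiP, and the co-chaperone DNAJB11 passed in neither fit, at 0.21 ± 0.25 and -0.09 ± 0.12 on 6 libraries and -0.04 ± 0.05 and -0.11 ± 0.05 without NC library 3.

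All 6 genes of oxidative folding passed without NC library 3, 2 higher and 4 lower, and 0 passed on 6 libraries, against 35.2% and 3.09% of all genes. ERO1A, the oxidase that reoxidizes disulfide isomerases, had 232, 226 and 201 in NC and 273, 276 and 264 in the siRNA-labelled libraries. Its paralogue ERO1B went the other way, with 57.0, 57.1 and 71.7 in NC and 44.5, 38.9 and 42.8 in the siRNA-labelled libraries. In both the groups did not overlap, ERO1A being higher and ERO1B lower in every siRNA-labelled library. ERO1A gave 0.31 ± 0.12 (adjusted p = 0.165) on 6 libraries and 0.25 ± 0.05 (adjusted p = 0.000364) without NC library 3. ERO1B gave -0.56 ± 0.14 (adjusted p = 0.0744) and -0.44 ± 0.08 (adjusted p = 0.000226), and GPR137B overlaps it on the opposite strand at 10.6% of its level.

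The disulfide isomerases divided as well. P4HB (PDI), which is also the beta subunit of collagen prolyl 4-hydroxylase, had 1678, 1672 and 1258 in NC and 2064, 1858 and 1856 in the siRNA-labelled libraries, with no overlap and NC library 3 lowest. It gave 0.33 ± 0.17 (adjusted p = 0.261) and, without NC library 3, 0.20 ± 0.05 (adjusted p = 0.00548). PDIA6 had 527, 528 and 796 in NC and 454, 434 and 445 in the siRNA-labelled libraries, also with no overlap but in the other direction and with NC library 3 highest. It gave -0.47 ± 0.19 (adjusted p = 0.175) and -0.25 ± 0.05 (adjusted p = 0.00045). P4HB and PDIA6 thus stood on opposite sides of NC. PDIA4 had 1697, 1771 and 1585 in NC and 1523, 1469 and 1436 in the siRNA-labelled libraries, all siRNA-labelled values being lower than all NC values, though not in FPKM. It gave -0.19 ± 0.13 (adjusted p = 0.393) and -0.23 ± 0.05 (adjusted p = 0.000899). PDIA3 (ERp57), the partner of CALR and CANX, had 2232, 2356 and 1457 in NC and 1885, 1977 and 2001 in the siRNA-labelled libraries, with NC library 3 lowest of all. It gave -0.04 ± 0.20 (adjusted p = 0.908) and -0.23 ± 0.05 (adjusted p = 0.000937), and its pseudogene PDIA3P1 was counted at 79.8 CPM, 4.02% of its level.

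Of the genes of ER-associated degradation, which extracts misfolded proteins to the proteasome, 0 of 6 tested passed on 6 libraries and 2 passed without NC library 3, both higher. Over all genes 3.09% and 35.2% passed. SEL1L and SYVN1 (HRD1) form the ubiquitin ligase complex at its core. SEL1L had 543, 549.8 and 577 in NC and 646, 668 and 663 in the siRNA-labelled libraries. The groups did not overlap. On the log2 scale the difference was 0.24 ± 0.12 (adjusted p = 0.244) on 6 libraries and 0.27 ± 0.05 (adjusted p = 0.0002) without NC library 3. SYVN1 had 86.1, 76.8 and 24.4 in NC and 113, 90.8 and 90.7 in the siRNA-labelled libraries, with NC library 3 far below the others. It gave 0.66 ± 0.41 (adjusted p = 0.343) and 0.27 ± 0.09 (adjusted p = 0.02), and FAU, a gene of a ribosomal protein precursor, overlaps it on the same strand at 266% of its level. EDEM1, which directs glycoproteins to degradation, HERPUD1, a membrane partner of SYVN1, and the channel proteins DERL1 and DERL2 passed in neither fit, with log2 fold changes from -0.18 (DERL2) to -0.06 (DERL1) on 6 libraries and from -0.11 (DERL2) to 0.02 (EDEM1) without NC library 3.

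Across libraries, the 3 NC values lay all above or all below the 3 siRNA-labelled ones for 26 of the 47 genes, 13 higher and 13 lower in the siRNA-labelled libraries, against 38.5% of all tested genes. Of these 26, 21 were also called without NC library 3. Both measures rest on NC libraries 1 and 2 and the same siRNA-labelled libraries, so this overlap is in large part built in. In FPKM the count was 23, as EIF2AK4, XBP1 and CANX then did not overlap and CEBPB, CALR, PDIA4, DNAJB11, DERL1 and DERL2 did. The share of all tested genes was taken on the CPM scale only, so the count in FPKM cannot be set against one. NC library 3 lay outside the range of the other 5 for 32 of the 47, as highest for 16 and as lowest for 16, which is 68.1% of them against 71.4% of all tested genes. Relative to NC 1 and NC 2, that library was high for DNAJB9, ATF6 and EIF2AK2 and low for SYVN1, CREB3L1, ERN1, CREB3L2 and HYOU1. The 48 genes together took 3.56%, 3.66% and 2.88% of the counts of NC libraries 1, 2 and 3, and 3.17%, 3.23% and 3.20% of the siRNA-labelled ones.

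**Figure D4:**
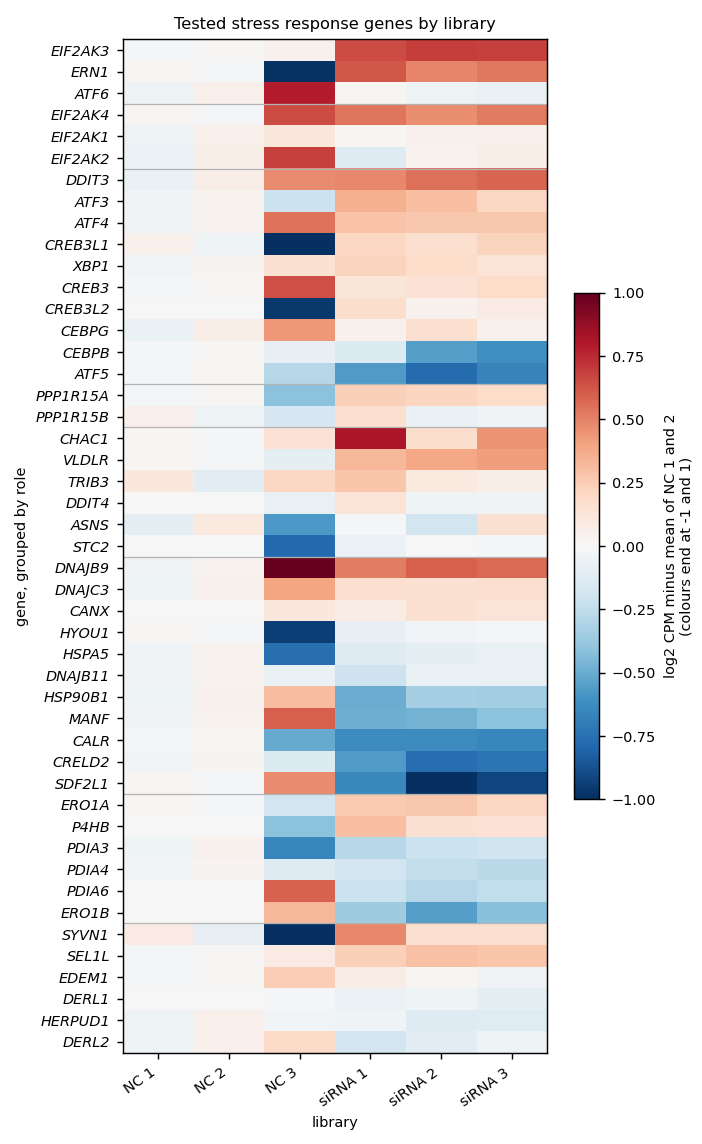
Log2 CPM of the 47 tested genes in each library minus the mean of NC libraries 1 and 2, in rows grouped by role and columns by library, red above and blue below. Of the 188 values of the other 4 libraries, 4 lie beyond the colour scale of -1 to 1. The NC 3 column is strongly coloured in both directions, and the 3 siRNA-labelled columns resemble each other, red for EIF2AK3 and ERN1 and blue for CALR, CRELD2 and SDF2L1.

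ER stress elements were looked for in the 300 bases from 250 before to 50 after each RefSeq start, as a description of the sequences. Windows were found for 44 of the 48 genes, 61 windows in all, and not for DERL1, DERL3, EIF2AK1 and PDIA3. ERSE was in 10 of the 61 and in 27 of 35116 windows of all genes (0.0769%), and ERSE-II in 3 of the 61 and in 19 of all (0.0541%). The 10 windows with ERSE belong to 8 genes. Because the 48 genes were chosen by name as genes of this response, a higher share than in all windows tests nothing. The elements are shown with 8 bases on each side (fewer at a window's end), each on the strand that reads ERSE as CCAAT then CCACG, or ERSE-II as ATTGG then CCACG, with those letters in capitals.
CALR: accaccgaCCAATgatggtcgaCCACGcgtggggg
CANX: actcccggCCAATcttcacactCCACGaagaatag
CRELD2: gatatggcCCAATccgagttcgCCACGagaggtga
ERO1B: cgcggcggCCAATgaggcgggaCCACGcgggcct
HSP90B1 upstream: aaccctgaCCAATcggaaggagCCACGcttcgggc
HSP90B1 downstream: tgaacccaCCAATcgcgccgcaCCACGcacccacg
HSPA5: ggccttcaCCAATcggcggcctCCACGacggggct
PDIA6: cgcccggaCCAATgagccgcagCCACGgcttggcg
XBP1: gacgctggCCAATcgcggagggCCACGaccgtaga
HERPUD1: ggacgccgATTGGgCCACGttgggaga
HYOU1 upstream: ggcctgggATTGGaCCACGtcacgggg
HYOU1 downstream: gcgtactcATTGGaCCACGtcccaggc
SDF2L1: gggttttgATTGGtCCACGcttccgag
In the order given these lie at chr19:12938376-12938410 (minus), chr5:179698770-179698804 (plus), chr22:49918546-49918580 (minus), chr1:236282175-236282208 (plus), chr12:103930208-103930242 (plus), chr12:103930313-103930347 (minus), chr9:125241383-125241417 (minus), chr2:10812845-10812879 (minus), chr22:28800595-28800629 (minus), chr16:56932017-56932043 (plus), chr11:119057372-119057398 (plus), chr11:119057266-119057292 (plus) and chr22:21642106-21642132 (minus), with the strand shown in brackets. HSP90B1 and HYOU1 each held 2 elements. The UPRE core TGACGTGG, also read on both strands, was in 0.729% of all windows and, among the 48 genes, only in HYOU1, where it overlaps the upstream ERSE-II.

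The 11 genes with ERSE or ERSE-II included 2 of the 3 genes called on 6 libraries, SDF2L1 and CRELD2, and 8 of the 11 passed without NC library 3, where 35.2% of all genes passed. Lower without NC library 3 were CALR, CRELD2, ERO1B, HSP90B1, PDIA6 and SDF2L1, higher were CANX and XBP1, and HSPA5, HYOU1 and HERPUD1 passed in neither fit. Their median log2 fold change was -0.47 on 6 libraries and -0.25 without NC library 3, against -0.02 and 0.01 over all tested genes. Among 18 tested genes outside the 48 that hold either element, 1 (ALG12) passed on 6 libraries, with a median of -0.18. Without NC library 3, 11 of them passed, 6 higher and 5 lower, with a median of -0.07. ALG12 overlaps CRELD2 on the opposite strand, and reads of the pair cannot be told apart where they overlap. The ATF4 composite element (TGATG, any base, then AA) was in 7 of the 61 windows, against 3.62% of all, namely those of ASNS, ATF3, CEBPG, CHAC1, CREB3L2, HERPUD1 and PPP1R15B. Of these 7 genes only ATF3 was called without NC library 3, against 35.2% of all genes. A match is a description of letters, in genes chosen by name for this response, and binding was not measured. Whether the elements have a part in the differences was not tested.

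Of 101 further genes of the pathway in 5 lists, 99 were tested, 1 passed on 6 libraries and 61 passed without NC library 3, 44 higher and 17 lower. Of all tested genes, 3.09% passed on 6 libraries and 35.2% without NC library 3, 16.9% higher and 18.3% lower. The gene that passed on 6 libraries was PDIA5, a disulfide isomerase, with 44.5, 46.4 and 33.2 in NC and 71.3, 71.2 and 71.9 in the siRNA-labelled libraries, a clear separation. Its log2 fold change was 0.79 ± 0.15 (adjusted p = 0.0427) on 6 libraries and 0.65 ± 0.07 (adjusted p = 6.56e-07) without NC library 3. In its list, ER folding and glycosylation, 14 of 26 were higher and 4 lower without NC library 3, PDIA5 among the higher ones. SEC61A1, of the translocation channel, and STT3A, of the oligosaccharyltransferase, gave 0.49 ± 0.17 (adjusted p = 0.136) and 0.48 ± 0.11 (adjusted p = 0.061) on 6 libraries and passed without NC library 3, at 0.35 and 0.45.

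Of 18 tested genes of signalling and translation control, 4 were higher and 4 lower without NC library 3. In that fit 16.9% of all tested genes were higher and 18.3% lower. The largest differences on 6 libraries were those of JDP2, a leucine zipper repressor, at -0.61 ± 0.17 (adjusted p = 0.0907), the adaptor NCK1 at -0.57 ± 0.19 (adjusted p = 0.124) and the stress-induced SESN2 at 0.47 ± 0.12 (adjusted p = 0.0749). Without NC library 3 these were -0.52, -0.34 and 0.43, and each passed. Of 19 tested amino acid and tRNA synthetase genes linked to ATF4, 8 were higher and 3 lower without NC library 3. PSPH, of serine synthesis, gave -0.75 ± 0.25 (adjusted p = 0.13) on 6 libraries, the amino acid transporter SLC7A5 0.73 ± 0.23 (adjusted p = 0.115) and SHMT2, of mitochondrial one-carbon metabolism, -0.63 ± 0.14 (adjusted p = 0.0626), and these passed without NC library 3 at -0.41, 0.50 and -0.50.

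Of 21 further genes of ER-associated degradation, 8 were higher and 4 lower without NC library 3, against 16.9% and 18.3% of all genes. The lectin OS9, which hands glycoproteins to SEL1L, had 321, 331 and 233 in NC and 179.8, 186 and 182 in the siRNA-labelled libraries, and gave -0.69 ± 0.16 (adjusted p = 0.0626) on 6 libraries and -0.83 ± 0.04 (adjusted p = 3.18e-10) without NC library 3. WFS1 gave 0.66 ± 0.35 (adjusted p = 0.275) and FAF2 0.61 ± 0.13 (adjusted p = 0.0573) on 6 libraries, and both passed without NC library 3, at 0.31 and 0.50. Of 15 genes of transport from the ER to the Golgi, 10 were higher and 2 lower without NC library 3. MCFD2, a cargo receptor subunit, gave -0.77 ± 0.29 (adjusted p = 0.162) on 6 libraries, the COPII coat gene SEC31A 0.63 ± 0.15 (adjusted p = 0.0705) and the KDEL receptor gene KDELR3 0.54 ± 0.19 (adjusted p = 0.14), and these passed without NC library 3 at -0.32, 0.50 and 0.79.

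**Figure D5:**
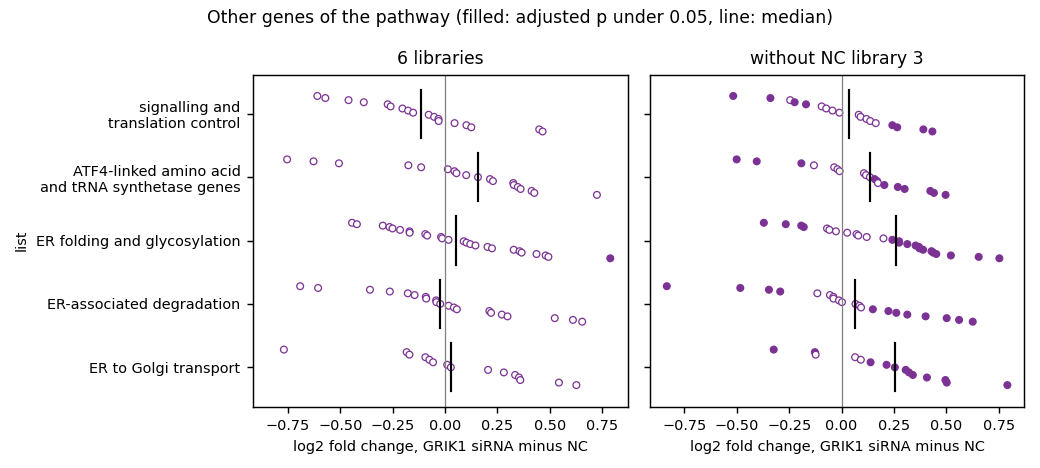
Log2 fold change (siRNA-labelled minus NC) of the 99 tested further pathway genes in 5 lists, on 6 libraries (left) and without NC library 3 (right). Each point is a gene, filled where the adjusted p was under 0.05, and lines are medians. On the left 1 point is filled (PDIA5), and on the right 61 are, more of them above 0 than below.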

How the data were processed

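RNA of U87-MG cells was extracted with TRIzol and made into libraries with the VAHTS Universal V8 kit. The submitters' processing notes name cutadapt 1.9.1, HISAT2, HTSeq and GRCh38, with no strand setting. The authors deposited whole-number counts per gene without normalization, and FPKM, which the authors derived from the count, the library total and the gene's exonic size. That formula returned 100% of the FPKM values, within 0.0051. Groups were taken from the labels, and 0 columns were left unassigned.

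Genes with a mean FPKM of at least 0.5 over the 6 libraries, 15870 of 61806, were tested with the quasi-likelihood test of edgeR 4.0.16 (R 4.3.3), TMM scaling and Benjamini-Hochberg adjustment over all of them. The ± values beside log2 fold changes are standard errors. Folds are siRNA-labelled over NC. The same test without NC library 3 stands beside it, and DESeq2 1.42.0 was an alternative. CPM values are counts relative to the TMM-scaled library total. The test was tried first on simulated counts, with planted changes larger than those reported here and no library that stood apart. That trial therefore does not bear on the calls in these data. Motifs were searched in RefSeq windows of GRCh38.p14 with Python 3.11.15.

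The 48 genes, the lists and the tests were chosen with earlier results of these data known. Values are given for each gene called in either edgeR fit, the sensors, XBP1, ATF4, DDIT3, HSPA5, DNAJB9, PPP1R15A, ASNS and genes under the filter. In each further list the genes called on 6 libraries are named, or else the 3 with the largest absolute log2 fold change. CHAC1, SEC61A1 and STT3A were added after their values were seen. A comparison of ER retention tails was planned and not run here. The 48 are all in GENCODE 29, and 13 of them overlap a gene with over 10% of their level.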

Additional observations from a re-analysis of the deposited data

How the results depend on the processing

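Scaling by DESeq2 size factors changed 0 calls among the 48 genes. On 6 libraries 1 of them was higher, 2 lower, 1 past a log2 fold change of 1, and 1 further pathway gene was called, and each of these counts was 0 with the replicate block. Same-numbered libraries of the 2 groups correlated at -0.0703, 0.0441 and -0.0425 in their deviations from the group mean. Different-numbered ones correlated at -0.0615 to 0.0835. These deviations sum to 0 in each group and NC library 3 stands apart, so the values can neither show nor exclude a pairing. Leaving out 1 library at a time gave 0 to 17 higher, 0 to 11 lower, 0 past the fold and 0 to 61 further genes, the highest counts being those without NC library 3. Testing without a filter gave 2 higher, 4 lower and 8 further genes, a mean FPKM of at least 1 gave 3 further genes, and DESeq2 gave 3 higher, 6 lower and 17 further genes. DESeq2 without NC library 3, chosen after seeing the data, gave 15 higher, 10 lower, 0 past the fold and 53 further genes. Of all 15870 tested genes, edgeR called 490 on 6 libraries and 5591 without NC library 3. Of these, 224 and 491 were past the fold. With the replicate block, or with any other single library left out, 0 were called. DESeq2 called 1684 on 6 libraries and 4210 without NC library 3, with 499 and 377 past the fold. Without a filter 1403 of 34080 genes were called, and 533 of 13030 at a mean FPKM of at least 1. The cause of these moves was not tested.

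Over 11 fits, 33 of 47 log2 fold changes kept their sign. DNAJC3 was -0.0111 without a filter and EIF2AK1 0.0212 at a mean FPKM of at least 1. With 1 library left out, the lowest and highest values of those that turned were HSPA5 -0.0949 to 0.25, PDIA3 -0.23 to 0.0835, DNAJB9 -0.10 to 0.56, DNAJC3 -0.0631 to 0.16, HYOU1 -0.0406 to 0.36, EDEM1 -0.11 to 0.0236, EIF2AK1 -0.0461 to 0.0368, ATF4 -0.0327 to 0.28, DDIT4 -0.010 to 0.0809, TRIB3 -0.00732 to 0.15, ASNS -0.00926 to 0.31, CEBPG -0.18 to 0.0853, CREB3 -0.21 to 0.15 and STC2 -0.0242 to 0.32.

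At this depth CHAC1, ASNS and DERL3 rest on few counts.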
